A study of Mus musculus with 12 samples.

Results

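The genes described here encode the bulk histones, the proteins around which newly copied DNA is wrapped. They were taken as every row of the deposited gene table whose symbol starts with Hist1h, Hist2h, Hist3h or Hist4h, the names of 4 gene clusters in the mouse genome. Of 24062 genes in the table, 68 carried such a name, and 49 of them reached at least 10 counts in at least 3 of the 12 kidneys and are the members. The *Hist1* cluster on chromosome 13 held 42 of the 49, the *Hist2* cluster on chromosome 3 held 4, the *Hist3* cluster on chromosome 11 held 2, and *Hist4* on chromosome 6 held 1. By protein, 5 were H1 linker histones, 12 were H2A, 15 were H2B, 10 were H3 and 7 were H4. The members nearest to the count minimum were *Hist2h3b*, with 11 counts in the third highest of its kidneys, and *Hist1h2ad* and *Hist1h2bf*, with 12 each. The nearest rows left out were *Hist3h2bb-ps*, annotated as a processed pseudogene, with 8 counts in the third highest of its kidneys, and *Hist1h4j*, with 7.

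Whole kidneys from mice at postnatal day 3 (P3) were sequenced, 1 library per kidney and 3 kidneys in each of 4 groups, in each of which the labels put 2 kidneys in litter 1 and the other in litter 2. The LIN28OE mice (C57BL/6) carried a doxycycline-inducible *LIN28B* transgene switched on by a Cre driven from *Wt1*, which is active in the intermediate mesoderm and in nephron progenitors and stroma, and *LIN28B* was induced with doxycycline before birth. Their controls were labelled WT (C57BL/6), and whether these had received doxycycline is not given in the labels. The let7KO mice, on a mixed CD1 and C57BL/6 strain, lacked *let-7a1*, *let-7d* and *let-7f1* in every cell, and were compared with WT mice of the same mixed strain. LIN28B is an RNA-binding protein that blocks the maturation of let-7 microRNAs, so the study set gain of the inhibitor beside loss of some of its targets.

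Replication-dependent histone genes are known to be transcribed in S phase, when a dividing cell copies its DNA, and to be shut off when copying ends. Their mRNAs are unusual among animal mRNAs in that they normally carry no poly(A) tail and end instead in a short stem-loop, which is bound by the protein SLBP and cut with the help of the U7 small nuclear RNA. Some of these genes can also make a longer, polyadenylated form, which is seen in differentiated cells. A SMARTer Ultra Low kit was used to make the libraries, and its first step copies RNA from an oligo(dT) primer, so the counts mainly record RNA with a poly(A) stretch. Fewer cells in S phase and less histone RNA in each cell cannot be told apart in whole kidneys.

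The stem-loop is the sequence by which these mRNAs are recognised, and it is shown for members described below and for *Hist1h4i*, which has a form of its own. A search on the transcript strand for the stem-loop, with any base allowed at the 3 positions where the forms printed here differ, matched a transcript of 47 of 55341 gene names in GENCODE M21 (GRCm38), and 42 of the 47 were clustered histone genes. Among the members, 32 of 49 had a match. The form in *Hist1h2ae* was carried by 20 of the 32 and the *Hist1h4d* form by 5, while another 5 had the form in *Hist1h3c*. *Hist1h4i* and *Hist2h2ac* each had a form of their own. Capitals mark the stem-loop, and 5 bases on each side are in lower case, 5′ to 3′ on the mRNA strand.
Hist1h1e: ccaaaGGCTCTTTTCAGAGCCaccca
Hist1h2ae: acaaaGGCTCTTTTCAGAGCCattca
Hist1h2bj: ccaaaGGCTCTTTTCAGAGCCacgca
Hist3h2a: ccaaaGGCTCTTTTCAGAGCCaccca
Hist3h2ba: ccaaaGGCTCTTTTCAGAGCCacctt
Hist1h3c: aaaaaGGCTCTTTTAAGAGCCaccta
Hist1h4d: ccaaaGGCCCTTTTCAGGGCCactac
Hist1h4i: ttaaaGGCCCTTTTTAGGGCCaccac
Hist2h2ac: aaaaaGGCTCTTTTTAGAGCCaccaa
The H4 genes shown differ from the H1, H2A, H2B and H3 genes shown at 1 base pair inside the stem, and the loop base that varies is the one after the run of T.

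Many H2A and H2B genes face away from each other across a short shared promoter. The gap between *Hist1h2ae* and *Hist1h2bg* is shown because *Hist1h2ae* is the member that passed the test in *let-7* KO kidneys, and the gap between *Hist1h2ac* and *Hist1h2bc* because it holds the start of the most abundant member. Both are written 5′ to 3′ on the plus strand of GRCm38. Capitals mark CCAAT or its complement, TATAAA or its complement, and the octamer ATTTGCAT.
Hist1h2ae to Hist1h2bg, chr13:23571221-23571395: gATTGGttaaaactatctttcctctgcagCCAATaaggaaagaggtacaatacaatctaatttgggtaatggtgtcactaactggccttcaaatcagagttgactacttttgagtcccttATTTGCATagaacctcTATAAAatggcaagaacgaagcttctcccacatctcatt
Hist1h2ac to Hist1h2bc, chr13:23683949-23684198: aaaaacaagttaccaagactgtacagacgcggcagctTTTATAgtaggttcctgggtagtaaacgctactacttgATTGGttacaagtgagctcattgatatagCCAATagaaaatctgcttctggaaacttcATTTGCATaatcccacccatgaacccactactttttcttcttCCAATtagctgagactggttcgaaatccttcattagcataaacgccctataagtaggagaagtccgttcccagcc
In RefSeq promoter windows, which run from 250 bases before to 50 after a gene's start, 45 of the 49 members had a sequence. A gene was counted if any of its windows held the motif. CCAAT, searched on both strands, was found for 88.9% of the 45 and for 41.1% of all 27025 genes with a window. TATAAA, searched on the gene's strand, was found for 46.7% of the 45 and 9.77% of all genes with a window. The octamer, searched on both strands, was found for 26.7% of the 45 and 1.97% of all genes with a window. Within the members it was found for 50% of H2A and 46.2% of H2B genes and for none of the 5 H1, 8 H3 and 7 H4 genes. CCAAT was found for every H1, H2A, H2B and H3 gene with a window and for 2 of 7 H4 genes. The genes of a divergent pair share the gap's sequence, and for CCAAT and the octamer both strands were searched, so members of such pairs are not independent in these shares.

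Each kidney had between 39926235 and 61872736 counts, so that 3 counts, taken as the least that can be told from 0, amount to between 0.0485 and 0.0751 CPM (counts in every 1000000 of the library), a floor that covers counting error only. The members held between 0.0203% and 0.0445% of a kidney's counts. Levels are given below as CPM scaled over all 12 kidneys by the trimmed mean of M values (TMM). Kidney genes marked the tissue, with *Slc34a1*, the sodium-phosphate transporter of the proximal tubule, between 490.0 and 1838 CPM in all 12. The mouse *Lin28b* row, which need not detect a human transgene, had 232, 224 and 71 counts in LIN28OE kidneys, the 71 in the litter 2 kidney. It had 0 to 33 in their controls. *Mirlet7d* had 0 counts in all 3 let7KO kidneys, against 0, 19 and 35 in their WT kidneys. Near-identical copies limit some rows. Of the 49 members, 10 had under 20% of the 50-base windows of their longest transcript to themselves, as did 6 of the 7 histone rows listed at 0 in every kidney, and their counts depend on how shared reads were assigned, which is not given in the sources used here.

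Levels were very unequal. Only 10 of the 49 members had a mean of at least 5 CPM over the 12 kidneys, 9 lay between 1 and 5 CPM, and 30 were below 1 CPM. The 8 highest members held 85.9% of all member counts. *Hist1h2bc*, an H2B gene at chr13:23684199-23692908 whose gene model spans an intron, was highest at a mean of 69.8 CPM. It was followed by the linker histone gene *Hist1h1e* at 48.7, the H4 gene *Hist1h4d* at 37.6, *Hist3h2a* at 33.1 and *Hist1h2ae* at 32.8 CPM. Per kilobase of exon, the highest of each type were *Hist1h2bc* (H2B) at 60.4, *Hist1h2ae* (H2A, chr13:23570517-23571220) at 46.6, *Hist1h4d* (H4, chr13:23581598-23582735) at 33.001, *Hist1h1e* (H1, chr13:23620629-23622558) at 25.2 and *Hist1h3c* (H3, chr13:23744973-23745602) at 2.87 CPM per kb. The H3 genes were thus uniformly low, with no member of 10 at or above 5 CPM, whereas 4 of 5 H1 genes were above it.

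**Figure D1:**
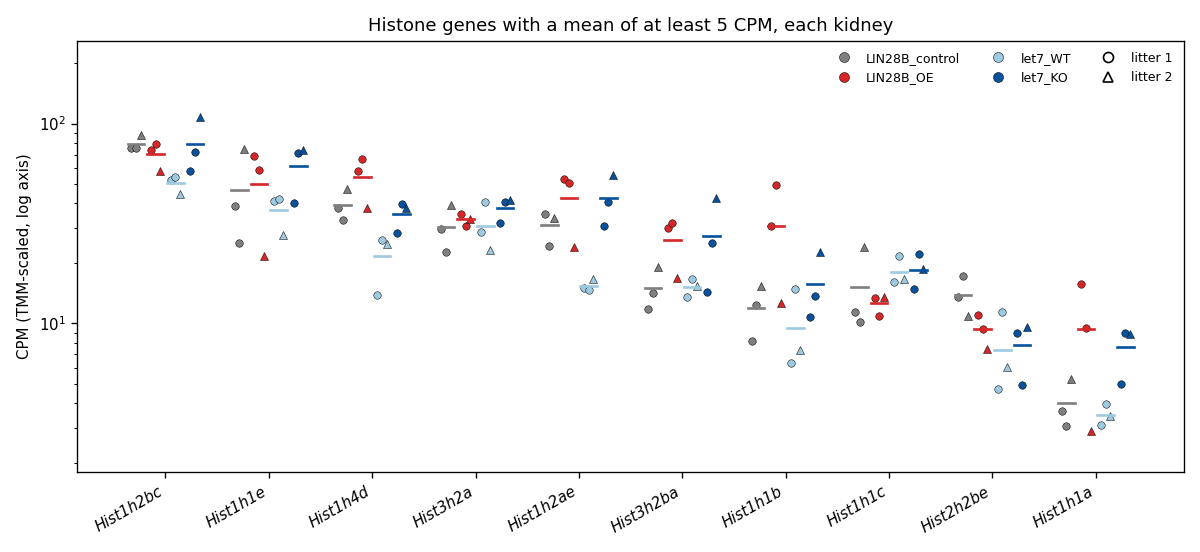
CPM (TMM-scaled, log axis) of the 10 histone genes with a mean of at least 5 CPM, 1 point per kidney, with circles for litter 1, triangles for litter 2 and a bar at each group mean (n = 3). The plots name the groups LIN28B_control, LIN28B_OE, let7_WT and let7_KO. *Hist1h2bc* lies highest, and in *Hist1h1b* and *Hist1h1a* the 2 LIN28OE kidneys of litter 1 lie above all 3 controls while the litter 2 kidney does not.

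Most of the abundant members had a long annotated 3′ end. Transcript models were sorted into those extending at least 100 bases past the stem-loop, or past the stop codon where no stem-loop matched (20 members), those ending at the stem-loop (14 members), and short models without a match (15 members). Of the members with a mean of at least 5 CPM, 8 were among the 20 with a long 3′ end, of which 6 ran past a stem-loop and 2, *Hist1h2bc* and *Hist2h2be*, had no match and were long relative to the stop codon. Of the others, none was among the 14 that end at the stem-loop, and 2, *Hist1h1a* and *Hist1h1b*, were among the 15 short models. The highest level among genes ending at the stem-loop was 5.08 CPM per kb, in *Hist2h2ac*. The medians did not follow the same order, at 1.02, 1.67 and 1.03 CPM per kb for long ends, stem-loop ends and short models. Many genes with a long annotated end were low per kb, among them *Hist1h1d* at 0.211 CPM per kb. Its mean of 1.565 CPM was well above the floor and is spread over 7425 bases of exon.

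**Figure D2:**
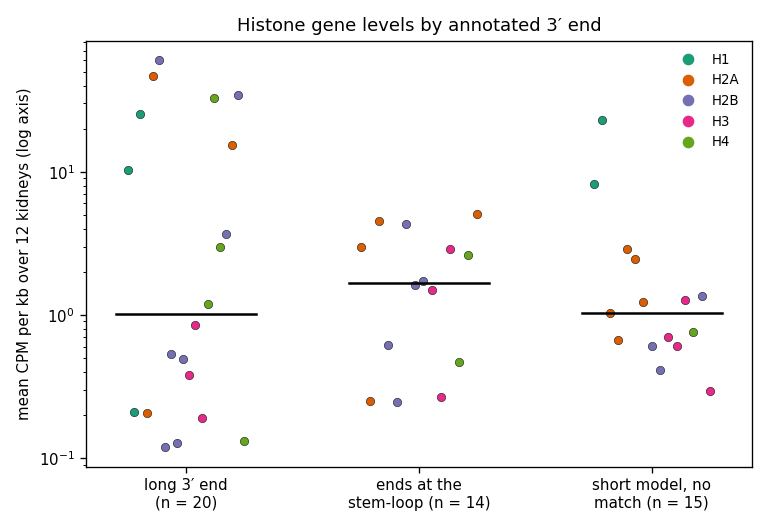
Mean CPM per kb over the 12 kidneys (log axis) for the 49 histone genes, 1 point per gene coloured by histone type, sorted by annotated 3′ end, with a line at each median. All points above 10 CPM per kb have a long 3′ end except 1 H1 gene, *Hist1h1b*, at 22.9 CPM per kb, and the class medians lie between 1.02 and 1.67.

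Genes that share a promoter gap often stood at unequal levels. Among 9 divergent pairs in which both genes were members, the ratio of the higher to the lower gene in CPM per kb ranged from 1.02 to 295, with a median of 2.54, and it exceeded 10 in 2 pairs. Those were the pairs whose gaps are printed above. *Hist1h2bc* was at 60.4 and *Hist1h2ac* at 0.205 CPM per kb across 250 bases, and *Hist1h2ae* was at 46.6 and *Hist1h2bg* at 0.529 CPM per kb across 175 bases. *Hist1h2ag* and *Hist1h2bj*, by contrast, stood at 4.51 and 4.33 CPM per kb, and both end at the stem-loop.

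In LIN28OE kidneys none of the members passed the study's threshold of an unadjusted p below 0.01, by which genes are called here, while most were higher in mean than in the controls. Of 46 members with enough counts to be tested, 0 passed, against 7.33% of the 15793 genes tested (edgeR's quasi-likelihood test), and 3 passed in DESeq2, beside 10.9% of all genes. At an unadjusted p below 0.05 the count was 4 of 46 members, beside 18% of all genes tested, a larger share than among the members. The log2 fold change was above 0 for 38 of 46 members, with a median of 0.80, and the median over all genes was -0.016. With a transcript-length covariate, described below, 35 of 46 were above 0 and the median was 0.49. The median standard error of a member was 0.88, above the median change, and 30 of the 49 members lay under 1 CPM. All 3 LIN28OE kidneys lay above all 3 controls for 9 of 46 members (19.6%), beside 10.3% of all genes tested, and the reverse was seen for 0 members.

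The smallest p values belonged to 3 genes, named after their values were seen except for *Hist3h2ba*. *Hist1h1b*, a linker histone gene at chr13:21779883-21780625, was at 30.8, 49.01 and 12.6 CPM in the LIN28OE kidneys and at 8.13, 12.4 and 15.4 in the controls, a log2 difference of 1.37 (SE 0.44, adjusted p = 0.146, edgeR). The third LIN28OE kidney, from litter 2, lay within the controls. *Hist1h2bj*, an H2B gene, was at 6.43, 4.69 and 2.38 CPM against 1.27, 0.805 and 1.88 in the controls, a log2 difference of 1.77 (SE 0.60, adjusted p = 0.163, edgeR). Here the groups did not overlap. *Hist3h2ba*, an H2B gene on chromosome 11, was at 29.97, 31.8 and 16.8 CPM against 11.8, 14.2 and 19.2 (log2 difference 0.80, SE 0.29, adjusted p = 0.186, edgeR), and the groups overlapped through the same litter 2 kidney.

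The pair of most abundant members stood near no change. *Hist1h2bc* was at 73.8, 79.4 and 57.9 CPM in LIN28OE kidneys and at 75.1, 75.1 and 87.6 in controls, a log2 difference of -0.17 (SE 0.17). *Hist1h1e* was at 68.5, 58.7 and 21.9 CPM against 38.7, 25.3 and 75.0 (log2 difference 0.10, SE 0.45). Its spread within each group was larger than the distance between the group means. *Hist1h4d* was at 57.8, 66.8 and 37.6 CPM against 37.7, 32.9 and 47.2 (0.46 on the log2 scale, SE 0.23), *Hist1h2ae* at 52.9, 50.2 and 24.1 against 35.5, 24.5 and 33.7 (0.45, SE 0.29), and *Hist1h3c* at 3.61, 4.87 and 2.03 against 1.11, 1.36 and 2.32 (1.14, SE 0.60). For the genes outside *Hist1*, *Hist2h2be*, an H2B gene, was lower, at 11.1, 9.43 and 7.49 CPM against 13.6, 17.3 and 10.9 (log2 difference -0.58, SE 0.28, adjusted p = 0.327, edgeR). *Hist3h2a* (0.13, SE 0.22), *Hist2h2ac* (0.50, SE 0.59), *Hist2h2bb* (0.62, SE 1.05) and *Hist4h4* (0.20, SE 1.62) did not pass, and *Hist2h3b* had too few counts to be tested.

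The LIN28OE kidney of litter 2 stood apart from the 2 of litter 1. With 1 LIN28OE kidney in litter 2, a difference of litter and of a single kidney cannot be told apart. That kidney had 71 counts in the mouse *Lin28b* row, and those of litter 1 had 232 and 224. Whether this bears on the histone values was not tested. In litter 1, 18 of the 19 members with a mean of at least 1 CPM were higher in the 2 LIN28OE kidneys than in the 2 controls, with a median log2 ratio of 1.25. In litter 2, with 1 kidney a side, 5 of 19 were higher and the median was -0.29. The litter 2 LIN28OE kidney was the lowest of its group for 34 of 46 members (73.9%) and for 37.2% of all genes tested. It was singled out because it was low for the members, so leaving it out raises most of their LIN28OE means by that choice. With it left out, 6 of 48 members passed, all raised, and no support is drawn from them. Beside them, 15.4% of all genes tested in that fit passed (edgeR), so the calls rose among all genes too. The members that passed were *Hist1h1a*, *Hist1h1b*, *Hist1h2ae*, *Hist1h2bj*, *Hist1h4d* and *Hist3h2ba*. Among 10 markers of nephron progenitors the same kidney was the lowest LIN28OE kidney for 4, *Cited1*, *Crym*, *Sall1* and *Traf1*. It was the highest LIN28OE kidney for *Six2*, *Eya1*, *Osr1*, *Gdnf* and *Itga8*, and lay in between for *Meox1*, so these markers gave no single direction for it.

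In *let-7* KO kidneys 1 member passed the test and most others were higher in mean. *Hist1h2ae* rose, from 15.1, 14.7 and 16.7 CPM in the WT kidneys to 30.6, 40.5 and 55.5 CPM, a log2 fold change of 1.44 (SE 0.27, adjusted p = 0.239, edgeR). Every KO kidney lay above every WT kidney, and the exact permutation p was 0.1, the smallest that 3 against 3 kidneys can give. It was the 1 member that passed of 42 tested, a share no larger than the 2.73% of the 15500 genes tested. At an unadjusted p below 0.05 (edgeR) the count was 6 of 42 members, beside 10.8% of all genes tested. The log2 fold change was above 0 for 35 of 42 members, with a median of 0.69 against -0.023 over all genes and a median standard error of 1.19. With a transcript-length covariate, described below, 28 of 42 were above 0 and the median was 0.28. The median of the H4 genes then went from 0.45 to -0.10, while that of the H3 genes went up, from 0.94 to 1.15. All 3 KO kidneys lay above all 3 WT kidneys for 8 of 42 members (19%), beside 7.81% of all genes tested.

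Other abundant members were higher in mean but did not pass. *Hist1h2bc* was at 58.2, 71.9 and 108 CPM in KO kidneys against 52.0, 54.1 and 44.6 in WT (log2 difference 0.65, SE 0.24, adjusted p = 0.392, edgeR). *Hist1h4d* was at 28.4, 39.6 and 37.7 CPM against 13.9, 26.2 and 24.9 (0.69, SE 0.29, adjusted p = 0.425, edgeR). In both genes the KO and WT kidneys did not overlap. *Hist1h1e* was at 39.9, 71.0 and 74.1 CPM against 41.0, 42.1 and 27.6 (0.73, SE 0.28, adjusted p = 0.392, edgeR), and *Hist3h2ba* at 14.3, 25.3 and 42.4 against 13.6, 16.6 and 15.3 (0.84, SE 0.36, adjusted p = 0.445, edgeR). In these 2 genes the first KO kidney fell within the WT range. *Hist1h1b* was at 10.8, 13.8 and 22.7 CPM against 6.32, 14.8 and 7.38 (0.72, SE 0.42). *Hist2h2be* (0.080, SE 0.47), *Hist3h2a* (0.29, SE 0.26), *Hist2h2ac* (0.69, SE 0.70), *Hist2h2bb* (0.26, SE 1.18), *Hist1h3c* (0.42, SE 1.03) and *Hist4h4* (-0.34, SE 1.35) did not pass either, and *Hist2h3b* was not tested.

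The first KO kidney was the lowest of its group for 31 of 42 members (73.8%) and for 34.9% of all genes tested. Without it 4 of 45 members passed, all raised, beside 8.12% of all genes tested in that fit (edgeR). They were *Hist1h1e*, *Hist1h2ae*, *Hist1h2bc* and *Hist3h2ba*. This kidney and the litter 2 LIN28OE kidney were singled out because they were low for the members. More raised calls without them follow in part from that choice and are not used as support. Within litter 1, 14 of 19 members with a mean of at least 1 CPM were higher in KO, with a median log2 ratio of 0.31, and within litter 2, with 1 kidney a side, 19 of 19 were, with a median of 0.89. The direction was therefore the same in both litters in the *let-7* KO comparison and not in the LIN28OE comparison. In each, litter 2 rests on 1 kidney a side, so litter and single kidneys cannot be told apart.

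**Figure D3:**
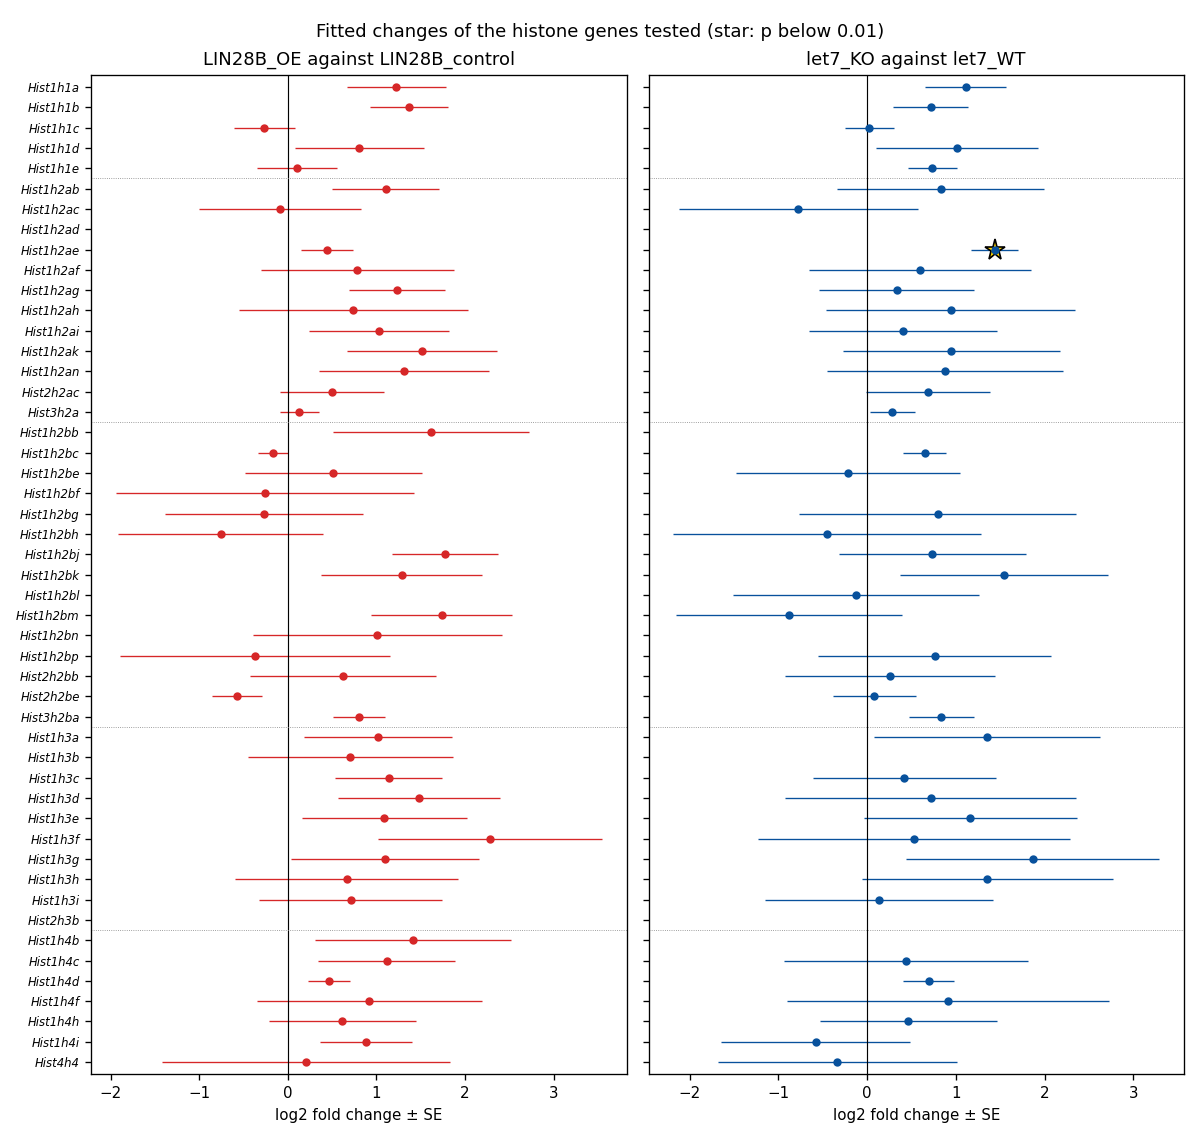
Log2 fold change (point) and its standard error (bar) of each histone gene tested, in LIN28OE against control kidneys on the left and in *let-7* KO against WT kidneys on the right, grouped by histone type from H1 at the top to H4. Points lie right of 0 for 38 of 46 and 35 of 42 genes, and the star marks *Hist1h2ae*, the only gene with p below 0.01.

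Mature let-7 microRNAs recognise targets through bases 2 to 8, in capitals here, and all 3 deleted microRNAs share them (RefSeq, GRCm38).
let-7a-5p: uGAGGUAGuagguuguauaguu
let-7d-5p: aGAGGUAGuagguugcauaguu
let-7f-5p: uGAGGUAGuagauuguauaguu
The complementary 7 bases CTACCTC were found in a transcript of 6 of 49 members (12.2%) and of 14.3% of all gene names in GENCODE M21, on the mRNA strand only. In 5 of the 6, all H3 genes (*Hist1h3d*, *Hist1h3e*, *Hist1h3g*, *Hist1h3h* and *Hist1h3i*), the match lay in the coding region at a like place, and in *Hist1h4d* it lay after it. Their log2 differences in *let-7* KO kidneys ran from 0.13 to 1.87 with none passing, and *Hist1h2ae*, which passed, had no match. The *Hist1* genes span 2.22 megabases (chr13:21715763-23934851) and lie 24.6 megabases from the deleted let-7 genes on the same chromosome. Because the KO was carried on a mixed strain, a chromosome 13 segment inherited with the deletion and an effect of the deletion cannot be told apart for these genes.

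The 2 models were compared directly in 1 fit of all 12 kidneys. Of 49 members, 0 differed at p below 0.01, beside 1.55% of 16598 genes, 2 differed at p below 0.05 (edgeR), beside 6.27% of all genes, and 0 at p below 0.01 in DESeq2, beside 2.49%. Neither share of the members was above that of all genes. The median of the differences was -0.020. The 2 with p below 0.05 were *Hist1h2bc*, whose LIN28OE change minus its *let-7* KO change was -0.84 on the log2 scale (SE 0.30, adjusted p = 0.688, edgeR), and *Hist1h2ae*, at -1.01 (SE 0.42, adjusted p = 0.752, edgeR). With a median standard error of 1.43, the data could not separate the models for most of the low members.

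Both control groups were wild type, but they differed in strain and in the experiment they belonged to, which cannot be told apart. Of 39 members tested, 3 passed and all were lower in the mixed-strain WT kidneys, beside 4.79% of 15850 genes. *Hist1h2ae* was lower by a log2 difference of -1.01 (SE 0.21, adjusted p = 0.0527), *Hist1h2bc* by -0.66 (SE 0.15, adjusted p = 0.0804) and *Hist1h4d* by -0.86 (SE 0.27, adjusted p = 0.204), all from edgeR. The WT kidneys lay below all LIN28B controls for 8 of 39 members (20.5%), beside 10.5% of all genes tested, and the median log2 difference was -0.33. The KO and the WT comparison share the WT kidneys. *Hist1h2ae* averaged 31.2 ± 5.90 CPM (SD, n = 3) in LIN28B controls, 15.5 ± 1.05 in mixed-strain WT, 42.2 ± 12.5 in *let-7* KO and 42.4 ± 15.9 in LIN28OE kidneys, so the LIN28B controls stood between the WT kidneys and the KO mean. Outside *Hist1* the control groups were at -0.92 for *Hist2h2be* (SE 0.37, adjusted p = 0.325, edgeR), 0.41 for *Hist2h2ac* (SE 0.62), 0.87 for *Hist2h2bb* (SE 1.07), 0.80 for *Hist4h4* (SE 1.42), 0.02 for *Hist3h2a* (SE 0.26) and 0.02 for *Hist3h2ba* (SE 0.24) on the log2 scale.

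Summed by type, the members repeated the pattern of the kidneys. The sum over all 49 was 287, 259 and 386 CPM in LIN28B controls and 447, 453 and 258 CPM in LIN28OE kidneys. It was 208, 266 and 206 CPM in WT and 258, 370 and 450 CPM in *let-7* KO kidneys. Both pairs of groups overlapped. H3, the smallest sum, was the 1 type for which the LIN28OE kidneys did not overlap their controls, at 11.2, 12.001 and 6.32 CPM against 3.91, 4.97 and 4.86 (ratio of means 2.15). H2A was the 1 type for which the KO kidneys did not overlap theirs, at 68.2, 92.4 and 110 CPM against 50.1, 62.4 and 46.7 (ratio 1.70). H2B, dominated by *Hist1h2bc*, was at a ratio of 1.04 in LIN28OE and 1.56 in *let-7* KO kidneys, H1 at 1.33 and 1.53, and H4 at 1.43 and 1.55. By cluster, *Hist1* was at 1.26 and 1.66, *Hist3* at 1.30 and 1.42 and *Hist2* at 0.775 and 1.21.

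**Figure D4:**
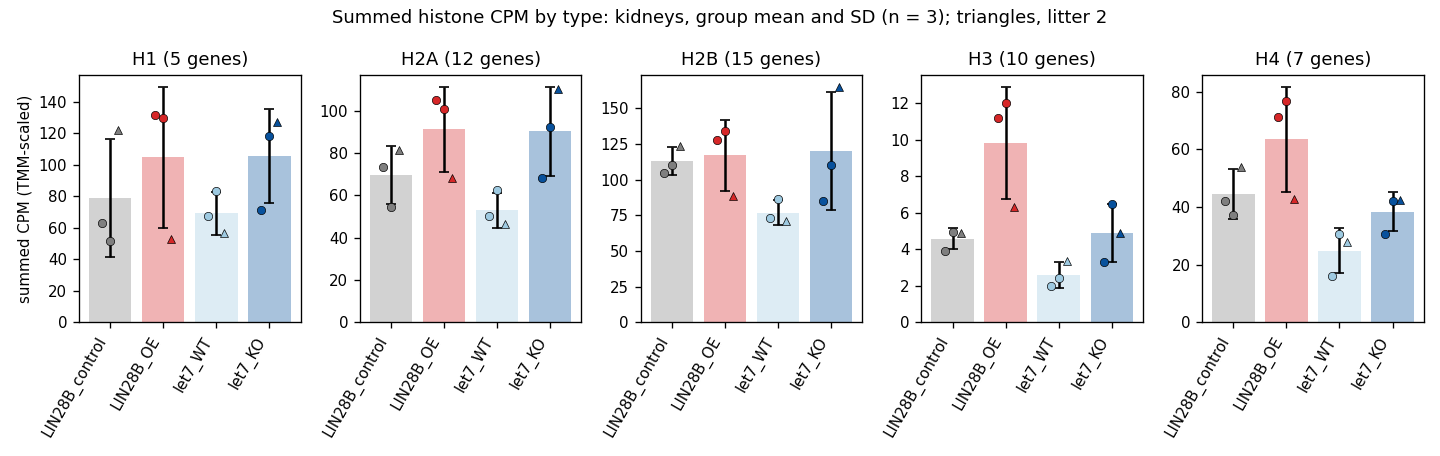
Summed CPM (TMM-scaled) of the histone genes of each type, with bars at the group mean, error bars of 1 SD (n = 3) and 1 point per kidney, triangles being litter 2. In LIN28OE the litter 2 kidney is the lowest of its group for every type, and H3 is the type whose 3 LIN28OE kidneys all lie above the controls.

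Histone transcripts are short, and the kidneys differed in how their counts depended on transcript length. The slope of a kidney's log2 CPM deviation on log2 transcript length over all genes was 0.146, 0.101 and 0.0004 in LIN28B controls and -0.0512, -0.0522 and 0.155 in LIN28OE kidneys. It was 0.0277, -0.108 and 0.152 in WT and -0.0008, -0.176 and -0.194 in *let-7* KO kidneys. In each of the 4 groups the kidney with the lowest slope, the one richest in short transcripts, had the highest histone sum. With the slope as a covariate, 0 members passed in LIN28OE and *Hist1h2ae* passed in *let-7* KO, with the lower medians given above. How much of the histone difference came with the slope was not tested beyond this fit.

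**Figure D5:**
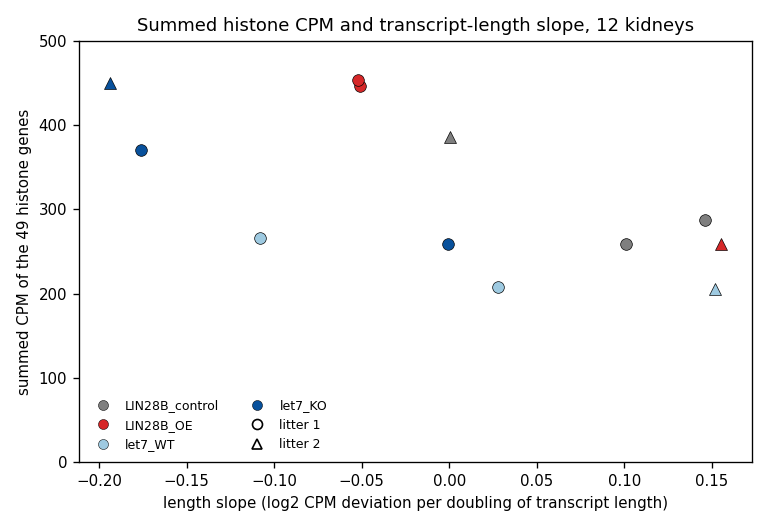
Summed CPM of the 49 histone genes (vertical axis from 0) against the transcript-length slope of the same kidney, 1 point per kidney, coloured by group with triangles for litter 2. The 2 LIN28OE kidneys of litter 1 lie at slopes of -0.0512 and -0.0522 with sums of 447 and 453 CPM, and the litter 2 kidney at 0.155 with 258 CPM.

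Genes that work beside the histones included several that passed in LIN28OE kidneys. These lists were also chosen with earlier results known. The counts of this and the following lists stand beside shares of all genes tested. These shares were 7.33% in LIN28OE, 2.73% in *let-7* KO and 4.79% between controls in edgeR, and 10.9% in LIN28OE in DESeq2. At p below 0.05 in edgeR the share in *let-7* KO was 10.8%. For *let-7* KO in DESeq2 the share was not counted, so those counts do not set a list apart. Of 40 S-phase and replication genes 11 rose and none fell, with a median log2 change of 0.38, led by *Lig1*, the ligase that joins Okazaki fragments (0.83, SE 0.15, adjusted p = 0.0370, edgeR), *Rfc4* of the clamp loader (0.79, SE 0.16), *Uhrf1*, which maintains DNA methylation (0.55, SE 0.14), and *Gins2* of the replicative helicase (0.60, SE 0.16). *Pcna*, the sliding clamp, also rose (0.44, SE 0.13, adjusted p = 0.119, edgeR). Of 20 G2 and mitosis genes 4 rose, *Top2a*, *Birc5*, *Ube2c* and *Cenpe*, with a median of 0.32, and *Mki67* was at 0.31 (SE 0.15). Without the litter 2 LIN28OE kidney the S-phase count was again 11, while the share of all genes tested that passed was 15.4%. The S-phase median was 0.32 in that fit. In *let-7* KO kidneys 0 of 40 and 0 of 20 passed in edgeR, 1 and 0 in DESeq2, and 4 and 1 had p below 0.05 in edgeR, with medians of 0.028 and -0.089. Between the control groups 2 S-phase genes (*Mcm3* and *Uhrf1*) and 4 mitosis genes (*Cenpf*, *Bub1b*, *Top2a* and *Cdca8*) were lower in the mixed-strain WT kidneys.

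Of 23 genes for histone transcription and mRNA processing, 7 rose in LIN28OE kidneys, among them *Nasp*, a histone chaperone, *Sympk*, a scaffold of the cleavage machinery, *Snrpe*, an Sm protein, and *Casp8ap2* (FLASH), which joins the U7 particle in cutting histone mRNA. The stem-loop binding protein gene *Slbp* (0.20, SE 0.13) and *Npat*, the S-phase activator of histone transcription (0.047, SE 0.18), did not pass. In *let-7* KO kidneys *Snrpg*, another Sm protein gene, rose (0.86, SE 0.26, adjusted p = 0.362, edgeR), with *Slbp* at 0.037 (SE 0.18) and *Npat* at -0.16 (SE 0.30). Between controls *Upf1*, which acts in the decay of histone mRNA at the end of S phase, was lower in the mixed-strain WT kidneys (-1.64, SE 0.26, adjusted p = 0.0210, edgeR). With litter as a replicate block the processing count in LIN28OE was 3, and the share of all genes was not counted in that fit.

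Of 19 histone chaperone genes, 6 rose in LIN28OE kidneys, led by *Npm1* (0.84, SE 0.14, adjusted p = 0.0253, edgeR), *Nasp* (0.65, SE 0.13), *Nap1l1* (0.67, SE 0.14) and *Set* (0.47, SE 0.12), and 0 of 19 passed in *let-7* KO in edgeR, where 3 had p below 0.05, and 2 in DESeq2. The replication-independent variants, which are encoded outside these clusters and mostly made from polyadenylated mRNAs, included 4 of 11 tested that rose in LIN28OE kidneys. They were *H2afx* (0.63, SE 0.11, adjusted p = 0.0352, edgeR), the DNA damage variant, *H2afz* (0.72, SE 0.15), *H2afy* (macroH2A, 0.68, SE 0.15) and *Cenpa*, the centromeric H3 (0.54, SE 0.15). *H3f3b* (0.013, SE 0.15) and *H1f0* (-0.057, SE 0.16) did not pass. In *let-7* KO kidneys 0 of 11 passed in edgeR, where 5 had p below 0.05, and 5 in DESeq2, with *H2afz* at 0.47 (SE 0.18), *H2afx* at 0.18 (SE 0.21), *H3f3b* at -0.11 (SE 0.15) and *H1f0* at -0.14 (SE 0.19). Between controls *H1fx* was lower in the mixed-strain WT kidneys (-0.59, SE 0.18, adjusted p = 0.2003, edgeR).

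Other genes lie among the *Hist1* genes, and those that passed were lower in the mutant kidneys of either model. Of 51 non-histone genes annotated inside the cluster, 36 were listed at 0 in every kidney and 10 were tested in each model. In LIN28OE kidneys 2 passed, *Slc17a3* (-1.39, SE 0.18) and *Slc17a1* (-0.83, SE 0.15), solute carriers of the proximal tubule, and both fell. In *let-7* KO kidneys *Hfe*, an iron regulator, fell (-1.16, SE 0.31, adjusted p = 0.362, edgeR), and *Btn2a2* was listed at 0 in all 3 kidneys against 0.592 to 4.88 CPM in WT. Between controls both solute carriers were higher in the mixed-strain WT kidneys (0.97, SE 0.18, and 0.62, SE 0.16).

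Marker genes of kidney cell types also differed between groups, with more of them passing in LIN28OE than in *let-7* KO kidneys. Cell numbers and RNA per cell cannot be told apart in these values. Of 10 cap mesenchyme markers, genes of the nephron progenitors, 8 rose in LIN28OE kidneys (median 1.83), with *Six2* at 3.35 (SE 0.24), *Cited1* at 3.33 (SE 0.28), *Osr1* at 1.63 (SE 0.24) and *Crym* at 1.55 (SE 0.19). Their summed level was 516 to 668 CPM against 238 to 276 in the controls. In *let-7* KO kidneys 1 of 10 passed, *Gdnf* (2.20, SE 0.63), and the sums were 220 to 237 against 178 to 249 CPM. Of 10 kidney tissue markers 5 fell in LIN28OE, led by *Slc12a3*, *Slc34a1*, *Umod* and *Slc12a1*, and 0 passed in *let-7* KO in edgeR, where 4 had p below 0.05, while 2 fell in DESeq2. In the control comparison 4 were higher and *Pax2* was lower in the mixed-strain WT kidneys, and *Eya1* was the 1 progenitor marker that was lower. Summed kidney tissue levels were 4178 to 4467 CPM in LIN28B controls, 2233 to 3049 in LIN28OE, 4846 to 6392 in WT and 5045 to 5611 in *let-7* KO kidneys.

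Markers of other cells were few. Of 13 erythroid rows 5 were listed at 0 in every kidney, all of them globin rows, so blood could be judged only from others such as *Alas2*, and the sum was 65.7 to 95.02 CPM in LIN28B controls, 50.6 to 84.6 in LIN28OE, 88.9 to 113 in WT and 83.6 to 112 in KO kidneys, with *Slc4a1* lower in LIN28OE (-1.37, SE 0.32). The 12 leukocyte markers summed to 215 to 256, 174 to 229, 161 to 291 and 155 to 176 CPM in the same order, with *Csf1r* lower in LIN28OE (15.5 ± 4.67 against 31.04 ± 2.88 CPM, SD, n = 3) and *Cd79a* and *C1qb* lower in WT than in LIN28B controls. The 6 adrenal markers summed to between 1.79 and 5.32 CPM in all kidneys, and *Nr5a1* was lower in WT than in LIN28B controls. The 6 adipocyte markers, mostly *Fabp4*, which other cells also make, summed to 428 to 563, 241 to 411, 253 to 414 and 417 to 628 CPM. *Cidec* was lower in LIN28OE, and 5 of the 6 were lower in WT than in LIN28B controls. There *Adipoq* was at 22.4, 25.7 and 2.60 CPM in the LIN28B controls and at 0, 0 and 0.118 in WT kidneys. The part of these markers in the histone values was not tested.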

How the data were processed

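Whole kidneys of P3 mice were sequenced (4 groups, 3 kidneys each). According to the submitters' processing notes, cutadapt, TopHat2 2.0.9, Bowtie2, SAMtools 0.1.19 and HTSeq were used with mm10. The authors deposited raw counts per gene symbol, 1 table per kidney, and strand and the handling of shared reads are not given in the sources used here. Here the 6 kidneys of a model entered 1 fit in edgeR 4.0.16 under R 4.3.3, after filterByExpr (minimum count 10, minimum total count 15) and TMM scaling. Quasi-likelihood p-values were adjusted by Benjamini-Hochberg over all genes tested. A gene passed at an unadjusted p below 0.01, the study's threshold. SE is the log2 fold change over the square root of F. The difference between models was an interaction over 12 kidneys. Scripts were tested on simulated counts. P-values measure the spread between kidneys, which share litters. Positions, exon lengths and transcripts came from GENCODE M21, which matched 94.4% of symbols, and promoters and microRNAs from RefSeq.

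Members and gene lists were chosen with earlier results of these data known. Named members are those that pass, the highest per kb of each type and all outside *Hist1*, and listed genes are up to 4 with the smallest p per list and comparison plus 8 fixed ones (*Slbp*, *Npat*, *Mki67*, *Pcna*, *H2afz*, *H2afx*, *H3f3b*, *H1f0*). Other names were chosen after their values were seen. Litter numbers come from the labels. Deviations of kidneys with the same litter number correlated at a mean r of -0.034 (LIN28B) and 0.001 (let-7), against 0.042 and -0.001 for other pairs. Alternatives were DESeq2 1.42.0, upper-quartile scaling, 2 other filters, an adjusted p below 0.05, each kidney left out, a transcript-length covariate, litter as a block, 1 fit of all kidneys and, added after seeing the data, litter 1 alone.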

Additional observations from a re-analysis of the deposited data

Results flagged for a closer look

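None of the 49 histone genes differed between the 2 models at p below 0.01. Of the listed genes named by the same rule, 11 did in edgeR's test of the difference between the LIN28OE and the *let-7* KO change, and the adjusted p of all 11 lay between 0.178 and 0.628, so none passed after adjustment. The log2 difference, LIN28OE minus *let-7* KO, was 0.92 for the S-phase kinase gene *Cdk2*, 2.39 for *Six2*, 2.18 for *Cited1* and 1.07 for *Crym*. It was -1.38 for *Slc12a3*, -0.78 for *Slc34a1* and, inside the *Hist1* cluster, -0.89 for *Slc17a3*. For the adipocyte markers it was -0.94 for *Fabp4*, and the fitted -9.68 for *Ucp1* and -10.11 for *Cfd* rest on kidneys at or near 0 and are not bounds, as does the 12.43 for *Btn2a2*.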

How the results depend on the processing

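In LIN28OE kidneys the count of 0 passing members became 3 of 46 in DESeq2, beside 10.9% of all genes tested. It became 1 of 49 without a filter, 1 of 15 with a strict filter and 7 of 47 with litter 1 alone. The median log2 change with litter 1 alone was 1.32. The share of all genes that passed was not counted for these other fits, so their counts do not set the members apart. Leaving out 1 kidney gave from 0 to 6 passing members and a median of 0.63 to 1.06. The count of 1 in *let-7* KO kidneys became 0 at an adjusted p below 0.05. In DESeq2 it was 2 of 42 and in 1 fit of all 12 kidneys 2 of 49, with the shares of all genes again not counted. It was 1 to 4 with 1 kidney left out, and the median was 0.42 to 0.83 then and 0.28 with the length covariate. For the difference between models leaving out 1 kidney gave 0 to 1, the 1 being *Hist1h2bc* without the first KO kidney, and a median from -0.29 to 0.36. The 3 members of the control comparison became 0 at an adjusted p below 0.05 and 2 to 4 with 1 kidney left out, when the median ran from -0.60 to -0.12. *Hist1h4d* lost its call there without any of 5 kidneys. With litter as a replicate block the count stayed 0 in LIN28OE and 1 in *let-7* KO, with medians of 0.90 and 0.66.

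Genes near 0 change turned sign. In LIN28OE *Hist1h2bc* was 0.064 with litter 1 alone, and *Hist1h1e* was -0.50 and *Hist4h4* -1.55 with the length covariate. In *let-7* KO the length covariate gave -0.098 for *Hist2h2be* and -0.043 for *Hist3h2a*, and litter 1 alone gave -0.22 for *Hist2h2be*. Between controls *Hist3h2a* was -0.004 and *Hist3h2ba* -0.010 with upper-quartile scaling and -0.19 and -0.055 with the covariate. With 1 kidney left out the log2 changes in LIN28OE ran from -0.20 to 0.66 for *Hist1h1e*, -0.046 to 0.36 for *Hist3h2a* and -0.94 to 0.76 for *Hist4h4*. In *let-7* KO they ran from -0.17 to 0.55 for *Hist2h2be* and -1.54 to 0.12 for *Hist4h4*, whose log2 ratio of summed CPM ran from -1.55 to 0.14. Between controls they ran from -0.62 to 0.21 for *Hist1h1e*, -0.23 to 0.24 for *Hist3h2a* and -0.13 to 0.23 for *Hist3h2ba*. In LIN28OE the S-phase genes that rose numbered 18 with the length covariate and 8 with litter as a block, the G2 and mitosis genes 9 and 2, and the variants 7 and 4. Without the litter 2 LIN28OE kidney they numbered 11, 6 and 8, beside 15.4% of all genes tested, and in DESeq2 16, 7 and 6, beside 10.9%. The 7 processing genes became 3 with the block. In *let-7* KO the 1 processing gene became 0 with the covariate or the block and 3 in DESeq2. Between controls 2 S-phase, 4 mitosis and 1 variant gene became 5, 6 and 4 with the covariate and 5, 7 and 1 in DESeq2. For the covariate and block fits the share of all genes that passed was not counted. Nor was it counted for DESeq2 in *let-7* KO or between controls. Those counts therefore do not set the lists apart from all genes. The cause was not tested. Depth limits the 30 members under 1 CPM.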
